A study of Arabidopsis thaliana with 9 samples.

Results

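Transcript levels after strong induction of phloem companion cells were compared with those of the group labelled VISUAL. The comparison used 6 of the 9 one-colour Affymetrix arrays of the series and every gene that has a probe set naming it alone. That gave 16548 genes, of which 1805 carry a symbol in the reference gene table and 14743 are known there by locus tag only. Sieve elements lose their nucleus as they mature, and the companion cell beside each one keeps it alive and loads it with sugars, amino acids and signals. In VISUAL, a culture of Arabidopsis leaf tissue, hormones and an inhibitor of GSK3 kinases turn mesophyll into vascular stem cells and then into vascular cells, and VISUAL-CC directs that route to companion cells.

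Both groups hold 3 arrays, numbered 3, 4 and 5 in the labels. The plants were wild type of the ecotype Col-0. Cotyledons of seedlings aged 6 days spent 48 hours in medium with bikinin, the GSK3 inhibitor, at 10 µM, with 1.25 mg/L of the auxin 2,4-D and 0.25 mg/L of the cytokinin kinetin, and were then moved to the companion cell medium and collected after 96 hours. This description is given for every sample of both groups, so the labels do not tell how the group called CC-S (strong induction) was handled differently from the group called VISUAL. The labels name no separate cultures, so p-values measure the spread between these arrays, which may be technical, and with whole cotyledons a smaller number of cells of a type and less RNA per cell cannot be told apart.

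A gene is called changed, and said to rise or fall in CC-S, where limma's moderated test gave a Benjamini-Hochberg adjusted p under 0.05 over all 38408 probe sets. By that rule 20.2% of the genes were called, 1692 higher (10.2%) and 1655 lower (10.0%), and these shares are the background for every family below. A family holds the measured genes that the gene table names as such by a symbol or a synonym, so relatives listed by locus tag alone are not counted in it. Among the genes with a symbol the shares called were 13.1% higher and 11.2% lower (24.4% in all), against 19.7% called in all among genes known by locus tag only. The 2 groups of 3 arrays did not overlap for 34.7% of all genes and 40.8% of genes with a symbol. Most calls were small. The median size was 0.72 on the log2 scale among rises and 0.81 among falls, and 494 genes rose and 603 fell at least 2-fold (2.99% and 3.64% of all genes), of which 37 rose and 21 fell at least 8-fold (0.224% and 0.127%). CC-S replicate 5 was the array of its group closest to VISUAL for 71.9% of those rises and 69.7% of those falls. On the other side VISUAL replicate 4 was closest to CC-S for 48.2% and 52.4%. Testing instead for a change beyond 1.5-fold left 283 rises and 250 falls.

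The cell type markers were thinly covered. A marker counts as measured here where it was matched to a gene of the comparison, mostly by symbol or synonym. Markers that the gene table lists by locus tag only can be missed this way. The counts therefore need not stand for the whole lists, and a marker not matched may still be on the arrays. Of 19 companion cell markers 3 were measured: AT3G12730, the locus known as SAPL, rose (log2 change 3.04), the phloem export gene AT5G53730 (NHL26) fell by 0.73 with an adjusted p of 0.0472, and SWEET13 had a log2 change of 0.03. The call for AT5G53730 was lost on leaving out VISUAL replicate 3 (log2 change -0.79, limma adjusted p = 0.0806), VISUAL replicate 4 (-0.69, adjusted p = 0.116) or VISUAL replicate 5 (-0.72, adjusted p = 0.117). Of 14 sieve element markers 2 were measured, OPS at 0.31 and CLE45 at -0.12, and neither was called. Of 17 markers of xylem vessels 3 were measured, and the xylan synthesis genes IRX15 and GUT2 (IRX10) fell, by 1.91 and 1.03, while IRX15-L was not called at -0.88. Without CC-S replicate 4 only 1 of them was called, and without CC-S replicate 5 all 3 were. The mean log2 signal of these 3 ran from 7.28 to 8.11 over the CC-S arrays and from 8.64 to 9.21 over the VISUAL arrays. Of 12 procambium and cambium markers 6 were measured, 2 rose (LHW by 0.50, MOL1 by 0.62), 0 fell, and their mean level was 6.83 to 6.98 in CC-S against 6.24 to 6.52 in VISUAL. The call for LHW was lost without CC-S replicate 3, CC-S replicate 4, VISUAL replicate 4 or VISUAL replicate 5. The 3 mesophyll and the 3 guard cell line markers measured were not called, and no epidermis marker was measured. How far such shifts in cell makeup take part in the results below was not tested.

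Among the families with called genes, the median change was highest for genes of the endoplasmic reticulum (ER) body, a spindle-shaped compartment of the Brassicaceae that holds a defensive beta-glucosidase in aggregates with lectins. Of 11 measured genes of the ER body and the PYK10 complex 7 rose and 0 fell, with a median log2 change of 2.104 against -0.005 over all genes and 0.015 over the genes with a symbol. PYK10, the beta-glucosidase itself, which can cleave indole glucosinolates, gave log2 signals of 12.39, 12.34 and 11.73 on CC-S arrays 3, 4 and 5 and of 8.14, 9.46 and 9.46 on the VISUAL arrays in the same order. The lowest CC-S array was thus well above the highest VISUAL array, and the change of 3.13 ± 0.36 (standard error) had a limma adjusted p of 0.000614. NAI2, which is needed to form ER bodies, stood at 10.61, 10.54 and 9.95 in CC-S and at 7.51, 8.88 and 8.40 in VISUAL, a log2 change of 2.104. JAL22, a jacalin-related lectin of the complex, read 8.15, 8.09 and 6.39 against 5.07, 4.98 and 4.98.

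The 3 VISUAL values of JAL22 lay within 0.1 of each other, and the spread was in CC-S, where replicate 5 was the low array, as it was for PYK10 and NAI2. The lectins JAL33 and JAL34, at neighbouring loci on chromosome 3, rose by 2.38 and 2.36 and their relative JAL31 by 1.68. AT1G54010 (GLL23), a GDSL lipase-like protein of the complex, rose by 2.997. Not called were NAI1, the bHLH factor that drives PYK10 and NAI2 in seedlings, with a log2 change of 0.52 (adjusted p = 0.083), the lectin JAL23 at 0.33, and the PYK10 relatives BGLU21 and BGLU22 at 0.02 and -0.18. In every fit that left out 1 array 7 or 8 of the 11 were called, the eighth being NAI1 without CC-S replicate 5. The VISUAL values of JAL33, JAL31 and JAL23 are below the 25th percentile of probe set means (3.13), so their folds rest on dim signals, and how far the probes of the related lectins read each other was not analysed here.

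**Figure D1:**
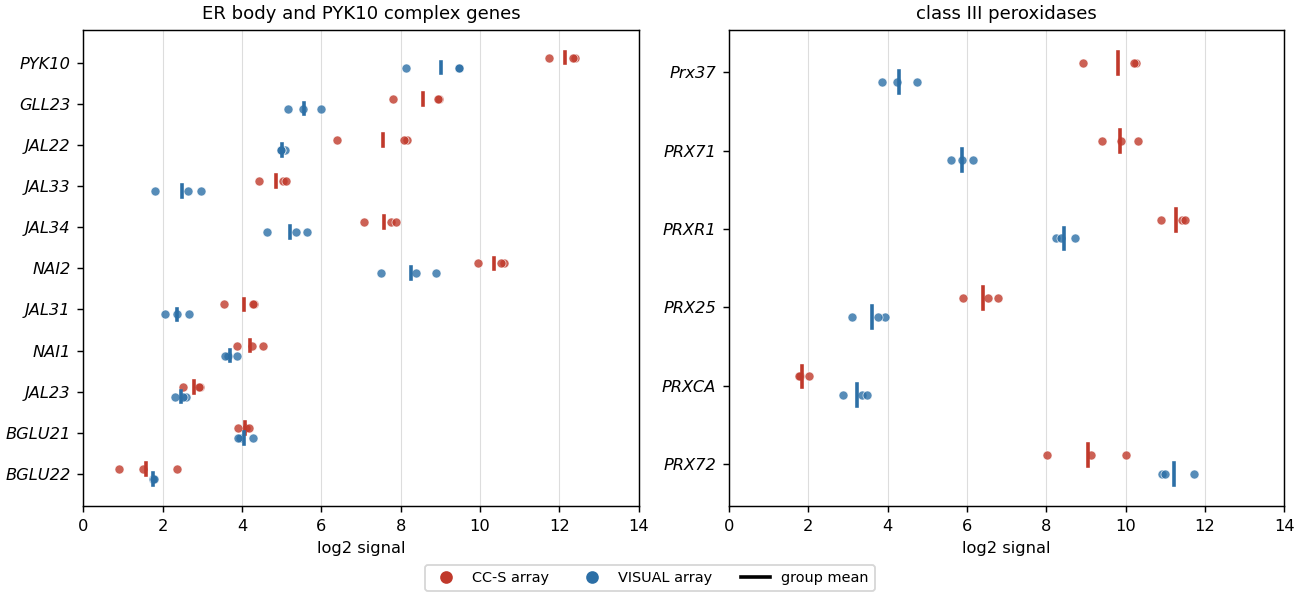
Log2 signal (x axis) on each CC-S array (red) and VISUAL array (blue), with the group means as bars, for the 11 measured genes of the ER body and PYK10 complex and for 6 class III peroxidases. From PYK10 down to JAL31 the CC-S points lie right of the VISUAL points without overlap, while NAI1, JAL23, BGLU21 and BGLU22 overlap; 4 peroxidases lie to the right and PRXCA and PRX72 to the left.

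Class III peroxidases, secreted haem enzymes that make or use hydrogen peroxide in the cell wall and can stiffen it or polymerise lignin, moved both ways. Of the 8 measured genes named as class III peroxidases 4 rose and 2 fell. Prx37 gave 10.26, 10.21 and 8.94 in CC-S and 3.87, 4.25 and 4.73 in VISUAL, the widest gap of the family with a log2 change of 5.52. PRXR1 rose by 2.82 and AT2G41480 (PRX25) by 2.81, next to AT5G64120 (PRX71) at 3.99. AT5G66390 (PRX72), a peroxidase tied to lignin in stems, went the other way with 8.01, 9.13 and 10.00 in CC-S against 11.73, 10.91 and 10.99 in VISUAL. Its groups do not overlap, CC-S replicate 5 again lies nearest to VISUAL, and the log2 change was -2.16 (adjusted p = 0.0129). PRXCA (PRX33), an apoplastic peroxidase of the immune oxidative burst, fell by 1.38 to a mean of 1.85, below the 10th percentile of probe set means (2.18). These counts of 4 and 2 were the same with each array left out. AT4G08780, the locus tag after that of Prx37 (AT4G08770), rose by 4.27. AT5G64110 and AT5G64100, in a run of called neighbours with PRX71, rose by 1.43 and 0.53. How far the probes of such neighbours read each other was not analysed here.

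Most named genes that reduce sulphate or handle sulphur amino acids rose. Of 7 measured 5 rose and 1 fell, with a median log2 change of 1.196. HL, a phosphatase that clears the nucleotide by-product of sulphation, had 9.56, 9.63 and 9.44 in CC-S and 7.04, 7.72 and 7.14 in VISUAL. The CC-S arrays lie close together, and the change of 2.24 ± 0.16 had an adjusted p of 6.74e-05. SIR, the sulphite reductase, rose by 1.196 and CBL, the cystathionine beta-lyase on the way to methionine, by 1.29. MGL, which breaks methionine down, rose by 1.39. HMT-1, a homocysteine methyltransferase that makes methionine, fell by 1.72, with 8.28, 8.20 and 8.29 in CC-S and 10.40, 9.57 and 9.95 in VISUAL.

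Transporter families rose in part. Of 14 NPF and NRT2 proteins, carriers of nitrate, hormones and glucosinolates, 5 rose and 0 fell (1 without VISUAL replicate 3), while the median over the 14 was 0.18. GTR2, which loads glucosinolates into the phloem, read 10.83, 10.86 and 10.89 in CC-S and 8.75, 9.11 and 9.18 in VISUAL, a log2 change of 1.85 ± 0.10. Its partner GTR1 was not called at 0.27. AT1G59740 (NPF4.3) had 11.49, 10.92 and 10.30 in CC-S and 8.25, 7.57 and 7.80 in VISUAL, and rose by 3.03. AT2G26690 (NPF6.2), a nitrate carrier of the petiole, rose by 2.05, the high-affinity nitrate transporter NRT2.5 by 1.29 and AT1G33440 (NPF4.4) by 1.01. UGT74B1, a glucosyltransferase of glucosinolate core synthesis, rose by 1.12.

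Of 16 SWEET sugar carriers 3 rose, 0 fell, and the largest change was that of SWEET11, a sucrose exporter of phloem parenchyma. SWEET11 stood at 10.35, 10.75 and 9.88 in CC-S and at 7.22, 9.10 and 7.65 in VISUAL, a log2 change of 2.33. VISUAL replicate 4 lay far above the other VISUAL arrays, and the groups did not overlap. SWEET11 alone remained called without CC-S replicate 3, CC-S replicate 4, VISUAL replicate 3 or VISUAL replicate 5. AT5G52050 (DTX50), a MATE-type exporter of abscisic acid, rose by 2.64 and ZIP6, of a family of zinc carriers, by 1.47. Falls were found for OCT5, of the organic cation transporters, with 5.28, 5.24 and 5.25 in CC-S and 6.97, 7.23 and 6.91 in VISUAL, and for PUP18, of the purine permeases, by 1.89. Of the 3 organic cation transporters measured OCT4 rose, by 0.82. None of 9 measured CHX cation/H+ exchangers was called by limma, and 0 had an unadjusted p under 0.05.

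Of 20 measured genes of DNA replication and repair 10 rose and 0 fell, with a median log2 change of 0.55. FBL17, an F-box protein that marks inhibitors of cyclin-dependent kinases for breakdown, gave 8.80, 8.65 and 8.42 in CC-S and 7.18, 7.41 and 7.34 in VISUAL. All 3 CC-S values were higher, by 1.31 on average (adjusted p = 0.000138). PRL, subunit 7 of the MCM replicative helicase, rose by 0.91, POLA3, of the primase that starts each strand, by 0.92, and the helicase RECQ4B by 0.81. The repair genes ATLIG4, DNA ligase IV of end joining, POLH, the translesion polymerase eta, and REV7 rose by 0.96, 0.85 and 0.58. SIM, an inhibitor of cyclin-dependent kinases that favours endoreduplication, rose too, by 1.14. With 1 array left out, 7 to 10 of the 20 were called.

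Of 17 measured subunits of the nuclear RNA polymerases 6 fell, 0 rose and 11 were not called (median -0.22), and without CC-S replicate 3 the number of falls was 3. NRPC2, the second largest subunit of polymerase III, read 6.42, 6.35 and 6.11 in CC-S and 7.34, 7.38 and 7.21 in VISUAL, a fall by 1.02. NRPB12, a small subunit, fell by 0.70 and NRPA2 of polymerase I by 0.52, both without overlap of the groups.

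Among transcription factors, 11 of 19 bHLH genes were called, 8 higher and 3 lower. AT1G22490 (bHLH94) and AT1G72210 (bHLH96) rose by 1.68 and 1.13, and PIF7, a factor of shade growth, and BIM1, a partner of the brassinosteroid factor BES1, by 1.04 and 0.92. ALC and SPT, related genes that shape the fruit, moved apart: ALC read 5.22, 5.13 and 5.17 in CC-S against 3.61, 3.96 and 4.11, and SPT 8.93, 8.80 and 8.86 against 9.50, 9.74 and 9.36. ALC was thus higher by 1.28 and SPT lower by 0.67. The iron deficiency factors PYE and bHLH121 rose by 0.63 each, and bHLH115 fell by 0.56.

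Of 7 WRKY factors, regulators of defence and ageing, 5 rose and 1 fell, and without CC-S replicate 4, or with arrays centred on their medians, the number of rises was 3. WRKY29 had 8.03, 8.23 and 8.39 in CC-S and 6.01, 6.31 and 6.43 in VISUAL (log2 change 1.97), and its partner WRKY22, both downstream of the flagellin kinase cascade, rose by 1.22. WRKY41 fell by 1.88, and without VISUAL replicate 5 another WRKY gene was called lower. Of 25 bZIP factors 6 rose and 6 fell. bZIP44 rose by 2.56, from 3.68, 4.18 and 3.69 in VISUAL to 6.53, 6.63 and 6.09 in CC-S, and bZIP19, the sensor of zinc shortage, by 0.77. bZIP75 fell by 2.47. Without CC-S replicate 4 the bZIP counts were 3 and 3, and without CC-S replicate 3 the falls were 3.

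Genes of auxin and cytokinin moved both ways. Of 6 GH3 enzymes, which join auxin and other acids to amino acids, WES1 rose by 2.52 and GH3.9 by 1.06 while GH3.1 fell by 1.16; without CC-S replicate 5 there were 2 falls. WES1 read 9.54, 9.77 and 9.32 in CC-S and 6.63, 7.27 and 7.17 in VISUAL. Of 8 AUX/IAA repressors of auxin response only IAA30 was called, lower by 1.82, and of 4 YUCCA enzymes of auxin synthesis only YUC6, lower by 0.81. The type-A response regulators parted, RR16 (ARR16) up by 0.85 and ARR15 at -2.95. UGT76C2, which inactivates cytokinins by N-glucosylation, rose by 1.097. Of 16 CLE peptide genes 3 fell and 0 rose, CLE18 by 1.21 and CLE42, a relative of the peptide that keeps vascular stem cells undifferentiated, by 0.86. The procambium markers CLE41 and CLE44 leaned the other way but were not called, at 0.61 (limma adjusted p = 0.0704) and 0.77 (limma adjusted p = 0.111). Without VISUAL replicate 4 or VISUAL replicate 5 there was 1 CLE rise. The 18 RALF-like peptide genes held 0 calls by limma, with 3 at an unadjusted p under 0.05. In them 1 rise and 1 fall appeared without CC-S replicate 5.

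**Figure D2:**
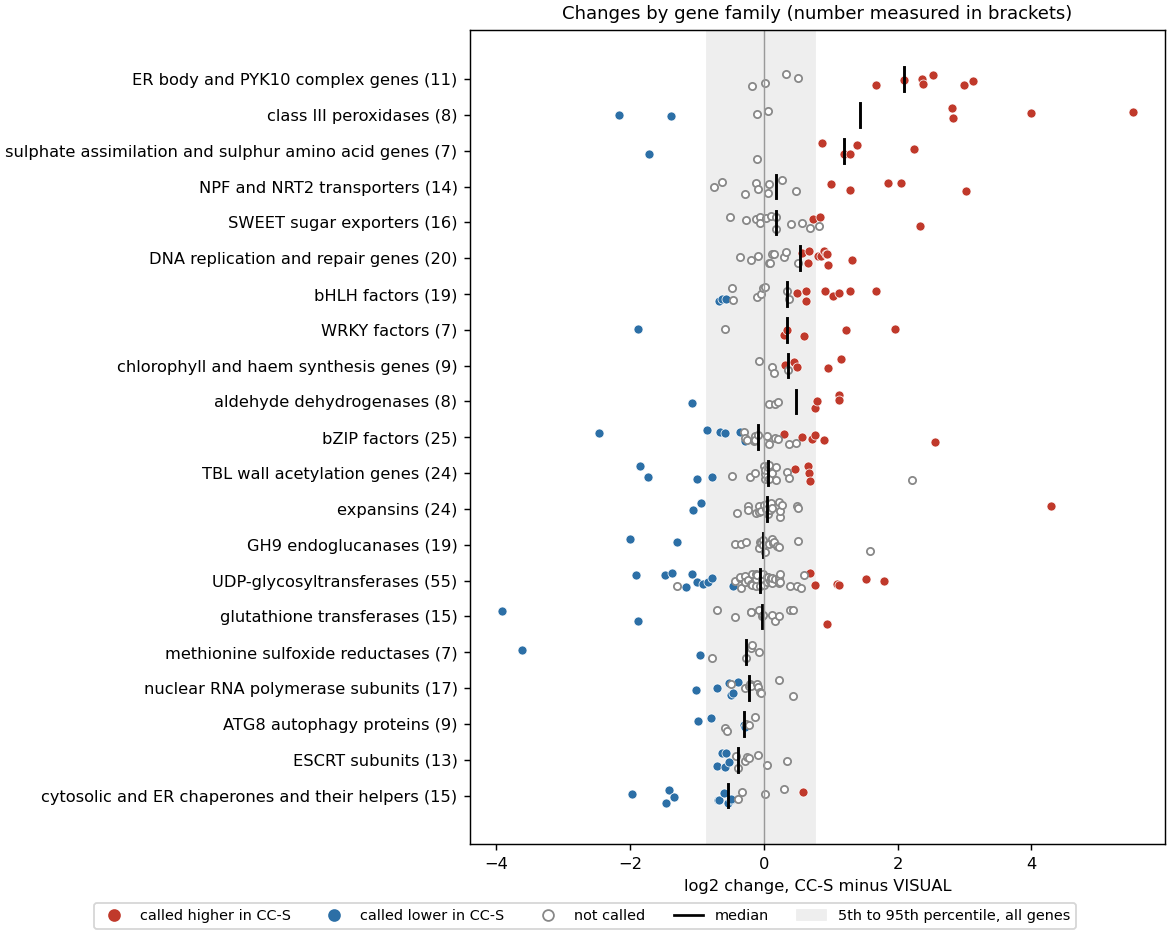
Log2 change from VISUAL to CC-S (x axis) of each measured gene in 21 families, filled red where called higher, blue where called lower and open where not called; the bar is the family median and the grey band spans the 5th to 95th percentile of all genes (-0.86 to 0.77). ER body, peroxidase and sulphur genes have medians beyond the band, and in the chaperone family 10 of 15 points are blue.

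Chaperones were mostly lower. Of 15 chaperones and their helpers, of the cytosol, the ER and, for ATJ1, the mitochondrion, 10 fell and 1 rose, with a median log2 change of -0.54. With 1 array left out the falls numbered 7 to 9, and the rise was lost without CC-S replicate 3, CC-S replicate 4 or VISUAL replicate 5. Fes1A, an exchange factor that protects HSP70 in heat, gave 6.66, 6.74 and 7.01 in CC-S and 8.33, 8.19 and 8.27 in VISUAL. The arrays of each group lie close, and the change was -1.46 ± 0.10 (adjusted p = 5.36e-05). Hsp70-2 read 6.45, 6.24 and 6.78 in CC-S and 7.89, 8.06 and 7.75 in VISUAL, a log2 change of -1.41. Hop3, which hands clients from HSP70 to HSP90, fell by 1.34 and its relative Hop2 by 0.49. ATHSP22.0, a small heat shock protein of the ER, fell by 1.97. ATJ1, a mitochondrial J-domain protein, and BOB1, a small heat shock protein needed for development, fell by 0.54 and 0.49.

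Of 5 regulators of the heat and unfolded protein responses looked at, chosen after their values were seen, 3 fell. DREB2C, a heat-induced factor upstream of heat shock genes, fell by 2.04, with 4.06, 4.71 and 5.08 in CC-S and 7.13, 6.62 and 6.24 in VISUAL. BZIP60 and BZIP28, the factors that switch on ER chaperones when proteins misfold, fell by 0.84 and 0.58. The related BZIP17 was not called at 0.08, nor was S1P, the protease that frees BZIP28 and BZIP17, at 0.22. AT1G18830 (SEC31A), a coat protein of vesicles that leave the ER, had 3.93, 3.82 and 4.41 in CC-S and 7.49, 5.50 and 7.11 in VISUAL. It fell by 2.64, and VISUAL replicate 4 lay below the other VISUAL arrays.

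Detoxification genes moved both ways. Of 55 UDP-glycosyltransferases, which attach sugars to hormones and foreign compounds, 10 fell and 6 rose. UGT73B2, a stress-induced flavonol glucosyltransferase, gave 7.89, 7.60 and 7.24 in CC-S and 9.17, 8.96 and 9.02 in VISUAL, and its neighbours on chromosome 4, UGT73B3 and UGT73B1, fell with it. The changes were -1.48, -1.37 and -0.77. UGT76B1, which tunes salicylic acid defence, read 5.75, 5.17 and 5.54 against 6.98, 7.84 and 7.35, a fall by 1.90. UGT85A2 rose by 1.80, so the family did not move as one. Of 15 glutathione transferases 3 were called, a share close to the background: GSTU25 and GSTU22 fell, by 3.92 and 1.89, and 1 rose, a call that was lost without CC-S replicate 3, CC-S replicate 4 or any VISUAL array.

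GSTU25 was even within each group, at 3.44, 3.44 and 3.74 in CC-S and 7.50, 7.37 and 7.51 in VISUAL. Of 7 methionine sulphoxide reductases, which repair oxidised methionine, 2 fell: MSRB8, by 3.62, and MSRB9, by 0.95. After median centring the falls were 4, and after quantile normalization 3. MSRB8 showed 3.62, 1.99 and 3.11 in CC-S and 5.95, 7.01 and 6.62 in VISUAL. NDB4, an alternative NADH dehydrogenase of mitochondria, fell by 1.38. Aldehyde dehydrogenases went the other way, with 4 rises and 1 fall among 8. ALDH10A8 and ALDH6B2 rose by 1.13 each, and ALDH11A3 fell by 1.07.

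**Figure D3:**
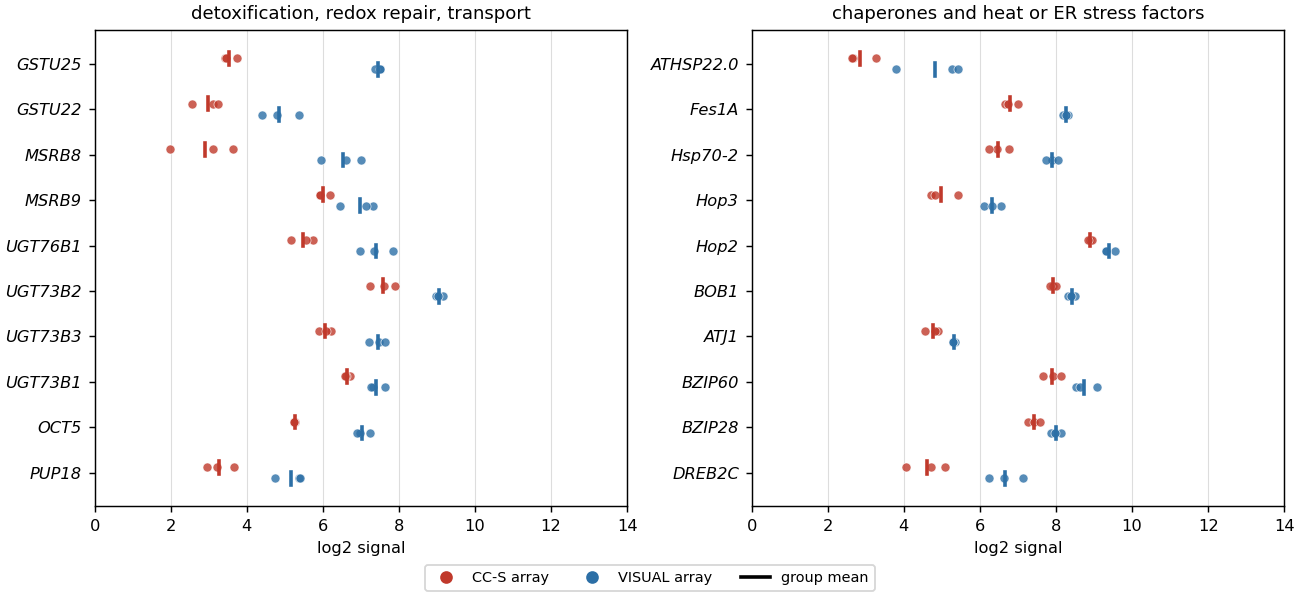
Log2 signal (x axis) on each CC-S array (red) and VISUAL array (blue), with the group means as bars, for 10 genes of detoxification, redox repair and transport and for 10 chaperones and factors of the heat or unfolded protein response. In each of the 20 genes the 3 CC-S points lie left of the 3 VISUAL points; the gap is widest for GSTU25 and MSRB8.

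Falls among genes of membrane sorting and autophagy were smaller. Of 13 ESCRT subunits, which sort ubiquitin-marked cargo into multivesicular bodies, 5 fell and 0 rose, with a median of -0.38; without VISUAL replicate 4 there was 1 rise. VPS2.1 read 9.65, 9.61 and 9.66 in CC-S and 10.30, 10.20 and 10.31 in VISUAL, a change of only -0.63 with a standard error of 0.06. ELC-Like and VPS60.1 fell by 0.70 and 0.57. Of 9 genes for ATG8, the tag of autophagy membranes, 4 fell and 0 rose, among them ATG8H by 0.98 and ATG8D by 0.79, and all 9 changes were below 0. The number of ATG8 falls was 2 without CC-S replicate 3, CC-S replicate 4 or VISUAL replicate 5, and 2 after quantile normalization. Of 4 subunits of ATP-citrate lyase, which supplies acetyl-CoA to the cytosol, ACLA-1 and ACLA-2 fell, by 0.80 and 1.25, while ICL, isocitrate lyase of the glyoxylate cycle, rose by 1.92.

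Wall genes split between and within families. Of 24 TBL genes, of wall acetylation, 4 rose and 4 fell. TBL33 and TBL31 fell by 1.73 and 1.85, while TBL32, TBL39 and TBL41 rose by 0.46, 0.70 and 0.68. The TBL changes, called or not, ran from -1.845 to 2.215, with 16 above 0 and 8 below. TBL33 gave 7.29, 7.37 and 7.92 in CC-S and 9.48, 9.05 and 9.25 in VISUAL. Without CC-S replicate 4 the rises were 1, and without VISUAL replicate 3 or VISUAL replicate 5 they were 2. GH9B5 and GH9B7, endoglucanases that cut cellulose, fell by 2.00 and 1.30. These 2 falls were 10.5% of the 19 measured, near the 10.0% over all genes, with a family median of -0.01. The number of GH9 rises was 0, or 1 without CC-S replicate 5, and the highest change, 1.59, was not called. EXPA9, a wall-loosening expansin, rose by 4.29, while EXPA8 and EXLA1 fell by 0.94 and 1.06. These were the only calls among 24 measured expansins, 12.5% against 20.2% over all genes, with a family median of 0.05. Without CC-S replicate 5 another expansin was called higher. CCR2, a cinnamoyl-CoA reductase, read 7.979, 7.43 and 7.201 in CC-S and 5.35, 5.62 and 5.12 in VISUAL and rose by 2.17. CCOAMT, of the caffeoyl-CoA methyltransferases, fell by 1.72. Lignin genes were not counted as a family here. EXO, a brassinosteroid-induced growth gene, fell by 1.91.

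The cytoskeletal TRM proteins, which bring regulators to microtubules, also split, with 3 rises and 2 falls of 15. TRM28 had 6.35, 6.46 and 6.48 in CC-S and 4.15, 4.45 and 4.40 in VISUAL. It rose by 2.09, and TRM25 fell by 2.04, from 7.95, 7.42 and 7.34 in VISUAL to 5.41, 5.44 and 5.73. Of the secreted subtilases, proteases that trim peptides and wall proteins, ATSBT5.2 rose by 2.66 and SBT3.5 and SBTI1.1 fell by 1.93 and 1.67, of 10 measured. The defensins PDF1.4, LCR68 and LCR69 rose by 2.46, 2.502 and 1.80, but of the 83 measured genes of the defensin-like families only 6 were called (7.23%). PDF1.4 stood at 9.97, 9.47 and 9.24 in CC-S and 6.90, 7.11 and 7.30 in VISUAL. The stress proteins OSM34, an osmotin, and MT1B, a metallothionein, rose by 1.39 and 1.91.

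Among the organelle-encoded genes grouped here the calls lay in the plastid. Of the mitochondrial genome only nad genes were grouped, and differences between the plastid groups were not tested. Of 63 plastid-encoded genes 24 rose and 0 fell (1 without CC-S replicate 3). The number of rises was 17 without CC-S replicate 3 and 19 after median centring. All 24 rises were by less than 1 on the log2 scale, and none passed the test for a change beyond 1.5-fold. Called higher were 9 of 10 subunits of NDH, the plastid complex of cyclic electron flow, 8 of 13 ribosomal proteins and all 4 subunits of the plastid RNA polymerase. Only 1 of 18 photosystem genes was called (2 without VISUAL replicate 3 or after quantile normalization), and 0 of 10 for the cytochrome b6f complex and ATP synthase (1 without VISUAL replicate 4 or after quantile normalization, and 1 at an unadjusted p under 0.05 in limma). ndhF gave 9.82, 9.52 and 9.36 in CC-S and 8.64, 8.77 and 8.78 in VISUAL, a change of 0.84. psbA, for the D1 protein of photosystem II, lay at 13.29, 13.17 and 13.19 against 13.32, 13.22 and 13.28, close to the highest signal in the table, and no saturation call is at hand. The mean over the 63 genes was 11.77, 11.55 and 11.48 in CC-S and 11.44, 11.32 and 11.30 in VISUAL, with replicate 3 the highest array of both groups.

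The polymerase count rested on single arrays: it was 1 without CC-S replicate 3, CC-S replicate 4 or VISUAL replicate 4, 2 without VISUAL replicate 5, and 1 after median centring. The 8 measured nad genes of the mitochondrial genome had changes of -0.12 to 0.24 and 0 calls in limma, with 0 at an unadjusted p under 0.05. In the nucleus CRR41, which helps assemble the plastid NDH complex, fell by 1.53. Of 9 enzymes of chlorophyll and haem synthesis 5 rose and 0 fell, led by CHLM, which methylates magnesium protoporphyrin, by 1.16 and by PORB, the light-driven protochlorophyllide reductase, by 0.95. CHLM read 7.56, 7.71 and 7.52 in CC-S and 6.43, 6.37 and 6.51 in VISUAL. The number of rises was 3 without CC-S replicate 3, CC-S replicate 4 or VISUAL replicate 4, and 3 after median centring.

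**Figure D4:**
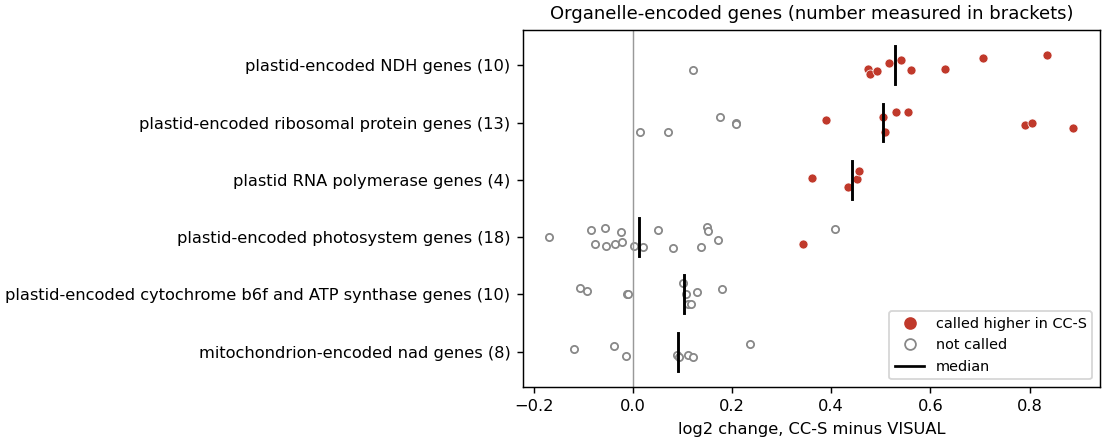
Log2 change from VISUAL to CC-S (x axis) of each measured gene in the organelle-encoded groups drawn, with the group median as a bar. Points are filled where called higher and open where not called. Plastid-encoded genes outside these groups are not drawn. NDH, ribosomal protein and polymerase genes centre between 0.44 and 0.53, photosystem genes at 0.01 and mitochondrial nad genes at 0.09.

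Beyond the families, the genes ranked 11 to 30 by size of change were mostly known by locus tag only, 18 of 20 rises and 17 of 20 falls, and no role is given for them here. Among the rises they ran from AT5G38940 at 3.93 to PYK10 at 3.13. AT5G38940 gave 10.48, 10.57 and 10.14 in CC-S and 6.36, 6.19 and 6.86 in VISUAL, and AT5G43590, AT1G49310 and AT3G04010 followed at 3.89, 3.83 and 3.78. Among the falls they began with AT1G52560 at -3.33, AT5G35688 at -3.29 and JRG21, a jasmonate-regulated gene, at -3.24. PUB54, of the U-box ubiquitin ligases, read 3.99, 4.202 and 4.25 in CC-S and 6.90, 7.59 and 7.28 in VISUAL, while PUB23, a U-box ligase that damps immune signalling, rose by 1.46. AGO7, the Argonaute that starts trans-acting small RNAs, fell by 1.69.

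Some called genes are neighbours. Of 10354 adjacent pairs of protein-coding genes with both members measured, 332 were called in the same direction and 189 in opposite directions. Over all genes 10.2% were called higher and 10.0% lower. How many pairs these shares alone would give was not worked out, so neither count is read as an excess. The longest run of called genes had 6 members on chromosome 4, from AT4G15660 to AT4G15710, all higher, by 1.86 to 8.01. AT4G15670 and AT4G15660 in it rose by 3.77 and 3.52, and how far the probes of adjacent related genes read each other was not analysed here.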

How the data were processed

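The deposited table of the series holds log2 signals of 38408 probe sets on 9 arrays; per the submitters' processing notes the authors used Affymetrix Expression Console, with neither its version nor the summary method recorded there. Values were used as deposited (array medians 4.71 to 4.90), with no detection calls, and the number of arrays limits the precision. Probe sets were named through the platform's annotation and a RefSeq gene table of assembly TAIR10.1; 16722 name 1 gene, 759 several and 20927 none here. A gene is its brightest single-gene probe set over all arrays, and 148 genes had several.

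Sample titles gave each array's group and number. All 9 arrays, with the 3 of moderate induction adding to the estimate of spread, were fitted with limma 3.58.1 in R 4.3.3 (lmFit, eBayes with an intensity trend, 6 residual and 2.65 prior degrees of freedom, 2-sided), and p-values adjusted over all probe sets. Errors beside changes are the fit's standard errors. Tables were made with Python 3.11.15 and pandas 2.3.3. On simulated data for this comparison, with 38408 probe sets, 65 of 100 changes of 1 and 91 of 100 changes of 2 on the log2 scale were recovered, with 10 false calls. The simulation held far fewer changed probe sets than were called in the real data, and normal noise. Its rates therefore check the procedure and need not hold for the real data.

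Members and lists were chosen with earlier results of these data known. The first family lists matched product descriptions, which the tables here lack, so 60 families were redrawn by gene symbols and synonyms after values had been seen; their counts are descriptions, with no test of a list. Genes named are the largest called changes of a family, ranks 11 to 30 of each direction whose groups do not overlap, measured markers, and others chosen after their values were seen. SAPL was matched to its locus from general knowledge, since the tables give its locus tag only. Same-numbered arrays did not deviate together (r -0.017, 0.045 and 0.088), so the numbers were not taken to pair them. Alternatives were fewer arrays, the replicate number as a block, other scaling, a dim filter, other variance settings, a fold threshold and another choice of probe sets. Gene order along the chromosomes, for neighbouring genes, was taken from that RefSeq table, and no sequences were used here.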

Additional observations from a re-analysis of the deposited data

How the results depend on the processing

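The total of 3347 called genes (1692 higher, 1655 lower) stayed within 1.5 times of itself under every alternative run but the test for a change beyond 1.5-fold, which called 533 (283 higher, 250 lower) by construction. It was 2586 with only the 6 arrays, 3330 with the replicate block, 3400 after quantile normalization, 3294 with arrays centred on their medians, 3472 without the dimmest 40% of probe sets, 3061 without the intensity trend and 3836 when adjusted over single-gene probe sets. Leaving out each array in turn gave 2278 (without CC-S replicate 4) to 3144 (without VISUAL replicate 4) calls, 1130 to 1620 higher and 1148 to 1534 lower. Of 252 called genes checked one by one (229 with the dim probe sets left out), 0 changed direction in any alternative run. Leaving out 1 array ended 16 (CC-S replicate 5) to 42 (CC-S replicate 4) of those calls, with 35 without CC-S replicate 3 and 37 without VISUAL replicate 5. Using only the 6 arrays ended 28, the test beyond 1.5-fold 147 and the replicate block 7, while the block called IRX15-L lower (adjusted p = 0.0166 in limma). Median centring moved the median change of all genes to -0.071 and the split to 1417 higher and 1877 lower.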
